A study of Mus musculus with 5 samples.

Results

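Nr4a1, Nr4a2 and Nr4a3, the 3 genes of the NR4A family of orphan nuclear receptors, were described in single mouse neutrophils of 3 conditions. They were matched by symbol among the 32285 genes of the count matrices, and all 3 were found. The family was chosen by its measured values in these data, the UMIs and the shares of positive cells per library and tag, so its levels are given as a description with no test. Each condition was measured in 1 library, so there are no replicates, and every interval given is a 95% interval that covers counting error only.

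AT3-gcsf mice bore tumours of AT3-gcsf, a line named after AT3 and after granulocyte colony-stimulating factor (G-CSF), which drives the production of neutrophils. AT3 mice bore tumours of the mouse mammary carcinoma line AT3 itself. Naive mice served as the control. All mice were female, wild type and of the strain C57BL/6J. Neutrophils were sorted by flow cytometry from bone marrow, blood and lung and marked with hashing antibodies, and about 24000 cells, 8000 of each tagged sample, were loaded per 10x Chromium lane. The number of mice behind a tagged sample, their age and the clonality of AT3-gcsf are not given. Each library held 3 tagged populations: MHTO5, MHTO4 and MHTO3 in AT3-gcsf, MHTO8, MHTO7 and MHTO10 in AT3, and MHTO5, MHTO4 and MHTO3 in naive. The labels do not say which tag marked which tissue, so populations are named by library and tag, and a tag name used in 2 libraries does not pair their populations. The populations of a library shared its lane and are not replicates, and condition and lane cannot be told apart.

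NR4A receptors are transcription factors with no established natural ligand, so their activity follows mainly from how much of them a cell makes. They are immediate-early genes, transcribed at once after cAMP, calcium, MAP kinase or NF-kB signals, and they bind the NBRE sequence as monomers. Nr4a1 (Nur77) restrains inflammatory genes in macrophages and is needed for patrolling monocytes in mice, and NR4A2 (Nurr1) and NR4A3 (Nor1) have been tied to the survival of human neutrophils.

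The sequences just upstream of the 3 genes are shown because all 3 members were high in the same populations. They come from RefSeq (GRCm38.p6), and all 3 members were matched by symbol. The genes lie on chromosome 15 (Nr4a1, ENSMUSG00000023034, chr15:101254269-101274795, plus strand), chromosome 2 (Nr4a2, ENSMUSG00000026826, chr2:57106830-57124003, minus strand) and chromosome 4 (Nr4a3, ENSMUSG00000028341, chr4:48045153-48086447, plus strand). Capitals mark TGACG, the half-site of the cAMP response element, or its reverse complement CGTCA, a motif chosen after the sequences had been seen. The Nr4a1 stretch, chr15:101266596-101266845 on the plus strand, ends just before a first exon and lies within an intron of a longer Nr4a1 transcript. The Nr4a2 stretch, chr2:57124004-57124253 on the minus strand, ends just before the first exon. The Nr4a3 stretch, chr4:48045055-48045152 on the plus strand, stops where the GENCODE annotation of the same build begins the first exon, 98 bases into the window.
Nr4a1: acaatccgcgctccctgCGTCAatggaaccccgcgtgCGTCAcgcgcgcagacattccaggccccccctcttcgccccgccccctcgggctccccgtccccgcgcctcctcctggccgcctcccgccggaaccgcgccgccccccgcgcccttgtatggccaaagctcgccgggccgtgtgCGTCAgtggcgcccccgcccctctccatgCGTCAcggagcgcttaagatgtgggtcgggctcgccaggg
Nr4a2: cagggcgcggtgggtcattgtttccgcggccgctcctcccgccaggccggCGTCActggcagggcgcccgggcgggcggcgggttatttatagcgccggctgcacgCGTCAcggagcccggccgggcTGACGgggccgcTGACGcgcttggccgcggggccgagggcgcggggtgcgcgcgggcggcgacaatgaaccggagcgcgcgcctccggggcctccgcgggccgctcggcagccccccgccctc
Nr4a3: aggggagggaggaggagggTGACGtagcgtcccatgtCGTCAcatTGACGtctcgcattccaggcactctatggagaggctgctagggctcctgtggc
In the 250 bases before the RefSeq start, TGACG was found at 4 positions in each of the 3 members, counting both strands. The fourth position of Nr4a3 lay in the exonic bases that are not printed. Of 32851 RefSeq windows of the same length, 17.8% held TGACG at 1 position or more, 0.688% at 3 or more and 0.137% at 4 or more. These shares are no measure of enrichment in the members, since TGACG was picked from the members' own sequences. The windows were also pooled without regard to their content of G and C bases. Whether the members hold more TGACG than windows of like G and C content was not tested. The full cAMP response element TGACGTCA, the AP-1 site TGANTCA, the NBRE sequence AAAGGTCA, the CArG box and the NF-kB site were at 0 positions in each member. The shares of all windows that held these motifs were 1.55%, 6.75%, 1.34%, 1.47% and 3.90% in the same order. The GC box GGGCGG stood at 3 positions in Nr4a1, 4 in Nr4a2 and 1 in Nr4a3, and 32.7% of all windows held it. TATAAA stood at 1 position in Nr4a2 and at 0 in the other members, against 12.4% of all windows. These are matches of letters in 1 window per gene, not binding sites.

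After tagging and filtering, the AT3-gcsf, AT3 and naive libraries held 10164, 7615 and 7376 cells and 90162340, 52157630 and 29587834 UMIs, molecular tags that count each captured transcript once. Median UMIs per cell were 7590 in AT3-gcsf, 4795 in AT3 and 2779 in naive. Libraries shared between 20 and 44 cell barcodes. Levels are in CPM, UMIs of a gene scaled to the same total in every population. All 13 neutrophil markers reached 20 CPM in all 9 populations. Their sum was 29.6%, 27.3% and 12.1% of all UMIs in AT3-gcsf MHTO5, AT3 MHTO8 and naive MHTO5 and ran from 17.8% to 46.9% in the other 6 populations. Those 3 populations are called Cxcl2-rich: the chemokine gene Cxcl2, no member of the family, had 97.6%, 97.3% and 95.3% of its library's UMIs there. A cluster of 383 of the 25155 cells, rich in markers of other cell types, is called the mixed cluster.

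Nr4a1, the most detected member, was concentrated in the Cxcl2-rich population of each library. It stood at 155.0 CPM in AT3-gcsf MHTO5 (151.0 to 159.1), against 4.40 in MHTO4 and 6.67 in MHTO3. In AT3 it stood at 312.2 CPM in MHTO8 (304.6 to 319.9), against 4.63 in MHTO7 and 17.5 in MHTO10. In naive it stood at 440.0 CPM in MHTO5 (426.2 to 454.1), against 10.6 in MHTO4 and 42.04 in MHTO3. The Cxcl2-rich level thus exceeded the others 35.2-fold and 23.3-fold in AT3-gcsf, 67.5-fold and 17.9-fold in AT3, and 41.6-fold and 10.5-fold in naive. The interval nearest to 1 was that of the last value, 9.31 to 11.8.

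Nr4a2, also called Nurr1, was the least detected member. It had 399 UMIs in AT3-gcsf MHTO5, or 10.9 CPM (9.86 to 12.03), against 5 UMIs in MHTO4 and 3 in MHTO3. AT3 MHTO8 held 677 UMIs, or 32.6 CPM (30.2 to 35.1), against 9 in MHTO7 and 7 in MHTO10. Naive MHTO5 held 602 UMIs, or 68.4 CPM (63.1 to 74.1), against 9 in MHTO4 and 6 in MHTO3. The other 6 populations thus had almost none. The smallest within-library fold was 47.5 in AT3, with an interval of 22.9 to 118.5, and the largest 103.5 in naive (54.2 to 227.4). The AT3-gcsf MHTO3 sum, at 3 UMIs, gave a ratio of 79.1 with an interval of 26.9 to 385.1.

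Nr4a3, also called Nor1, followed the same layout with a wider range between libraries. It stood at 14.1 CPM in AT3-gcsf MHTO5 (12.9 to 15.4), against 0.251 in MHTO4 and 0.230 in MHTO3. It stood at 63.4 CPM in AT3 MHTO8 (60.0 to 66.9), against 1.27 in MHTO7 and 3.04 in MHTO10. Naive MHTO5 reached 316.1 CPM (304.4 to 328.0), against 3.09 in MHTO4 and 6.26 in MHTO3. Within-library folds were 56.2 and 61.5 in AT3-gcsf, 49.7 and 20.8 in AT3, and 102.4 and 50.5 in naive.

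**Figure D1:**
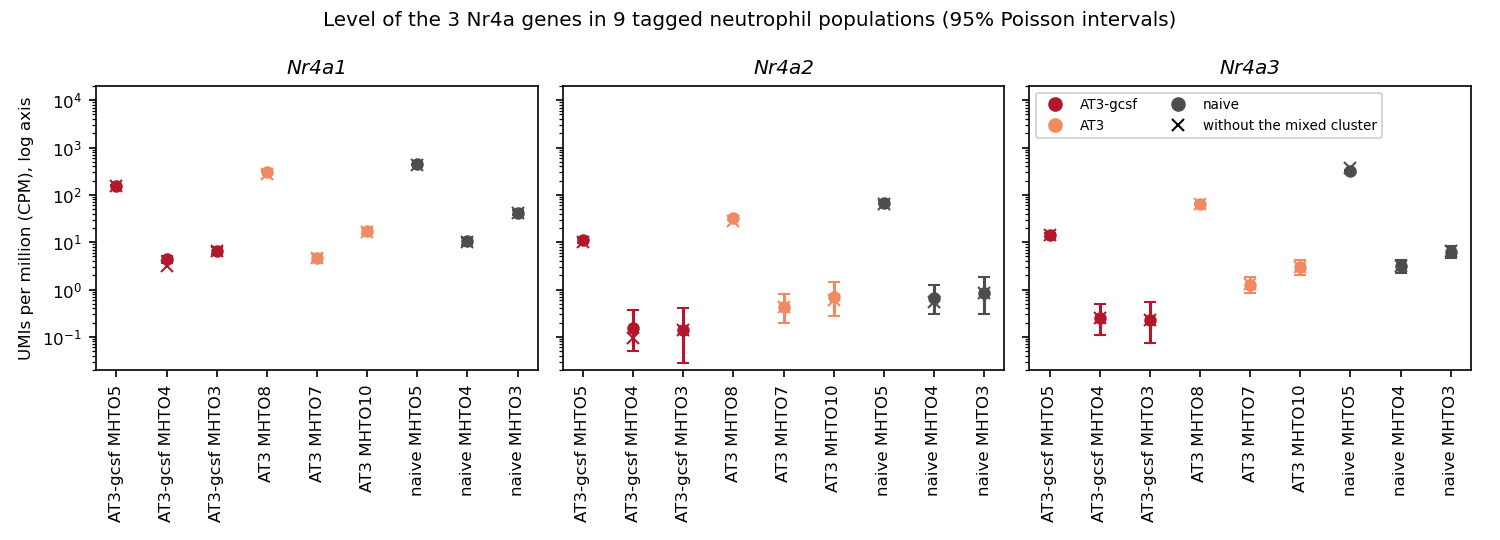
Level of each member in CPM (UMIs scaled to the same total, log axis) in the 9 tagged populations, with 95% Poisson intervals and crosses for values without the mixed cluster. In every panel the Cxcl2-rich populations AT3-gcsf MHTO5, AT3 MHTO8 and naive MHTO5 stand above the other 6, with Nr4a3 at 14.1, 63.4 and 316.1 CPM.

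With a minimum of 20 CPM in the highest population and 5 CPM added before the ratio, 1 of 1 member compared in AT3-gcsf was at least 2-fold higher in MHTO5 than in both other populations, where 5.94% of all genes compared were. With no minimum the number in AT3-gcsf was 3 of 3, where 1.04% of all 32285 genes were, a total that includes genes with no UMI. In AT3 it was 3 of 3 members against 9.05% of all genes, and in naive 3 of 3 against 13.2%. Apart from Nr4a1 in naive, the members compared reached 20 CPM only in the Cxcl2-rich population, and the family was chosen by these values. The counts therefore describe the members and are no support for a difference. Cxcl2 itself was 57.2-fold and 63.5-fold higher in AT3-gcsf MHTO5 than in MHTO4 and MHTO3, 71.6-fold and 35.0-fold higher in AT3 MHTO8, and 84.0-fold and 26.7-fold higher in naive MHTO5.

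Outside the Cxcl2-rich populations, Nr4a1 kept a measurable gradient. From the lowest level to the highest it was ordered AT3-gcsf MHTO4, AT3 MHTO7, AT3-gcsf MHTO3, naive MHTO4, AT3 MHTO10 and naive MHTO3. The intervals of the first 2 overlapped (3.70 to 5.19 and 3.76 to 5.64 CPM) and those of AT3 MHTO7 and AT3-gcsf MHTO3 overlapped at their ends. Naive MHTO3 exceeded naive MHTO4 by 3.97-fold (3.25 to 4.88) in Nr4a1, on a background of 20.1% of genes at least 2-fold higher in that comparison. Cxcl2 was 3.15-fold higher in the same comparison. The naive MHTO3 level was 9.55% of the naive MHTO5 level in Nr4a1 and 3.75% in Cxcl2. In Nr4a2 neighbouring intervals overlapped throughout these 6 populations. In Nr4a3 those of AT3-gcsf MHTO3 and MHTO4 overlapped, as did those of AT3 MHTO10 and naive MHTO4, and the other neighbours did not. In AT3-gcsf MHTO4, 1 cell held 40 of the 140 Nr4a1 UMIs, and without the mixed cluster that contained it the level was 3.18 CPM.

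A population sum does not tell cells that hold a transcript from transcripts per cell, so the members were also counted cell by cell. Nr4a1 had a UMI in 57.4% of AT3-gcsf MHTO5 cells, 64.3% of AT3 MHTO8 cells and 56.9% of naive MHTO5 cells. The lowest population of each library had 2.63% in AT3-gcsf MHTO4, 4.58% in AT3 MHTO7 and 5.92% in naive MHTO4. These shares were taken to stand for what free RNA can give, but free RNA was not measured apart from transcription in those cells. Median depths of the Cxcl2-rich and lowest populations were 8627 and 7320 UMIs per cell in AT3-gcsf, 4968 and 9738 in AT3, and 2809 and 5400 in naive. Shares at full depth therefore differ in depth between conditions, and thinning sets the depth level. A thinned share still depends on what else the cells hold, as CPM does. Neutrophil markers made up 29.6% of UMIs in AT3-gcsf MHTO5 and 12.1% in naive MHTO5. With every cell thinned to 1000 UMIs, Nr4a1 was found in 15.4% of AT3-gcsf MHTO5 cells (14.2 to 16.6), 26.3% of AT3 MHTO8 cells (24.8 to 27.9) and 29.8% of naive MHTO5 cells (27.9 to 31.7). Thinning left out 15, 27 and 74 shallower cells of these populations. The thinned shares of the lowest populations were 0.563% in AT3-gcsf MHTO4, 0.706% in AT3 MHTO7 and 1.58% in naive MHTO4.

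Nr4a3 showed the widest spread of thinned shares between conditions. At full depth it had a UMI in 11.5% of AT3-gcsf MHTO5 cells, 25.4% of AT3 MHTO8 cells and 48.4% of naive MHTO5 cells. The other 6 populations ran from 0.174% to 1.93%. At 1000 UMIs per cell the Cxcl2-rich shares were 1.81% in AT3-gcsf (1.40 to 2.29), 7.91% in AT3 (6.98 to 8.92) and 25.4% in naive (23.6 to 27.2), with no overlap of intervals. Nr4a2 stayed in a minority of cells everywhere. Its full-depth shares were 5.35% in AT3-gcsf MHTO5, 9.20% in AT3 MHTO8 and 10.6% in naive MHTO5, against 0.105% to 0.453% in the other 6 populations. Thinned, they were 0.971% (0.681 to 1.34), 3.14% (2.55 to 3.82) and 4.69% (3.87 to 5.63) in the same order. After thinning, Nr4a2 was at 0 of 2525 cells in AT3 MHTO10, where 0.275% of cells had a UMI at full depth, and Nr4a3 at 0 of 2846 cells in AT3-gcsf MHTO3, where 0.174% had one. Taking 3 counts as the limit, these zeros allow up to 0.119% and 0.105% of cells with a UMI at 1000 UMIs per cell, and say nothing of the shares at greater depth.

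**Figure D2:**
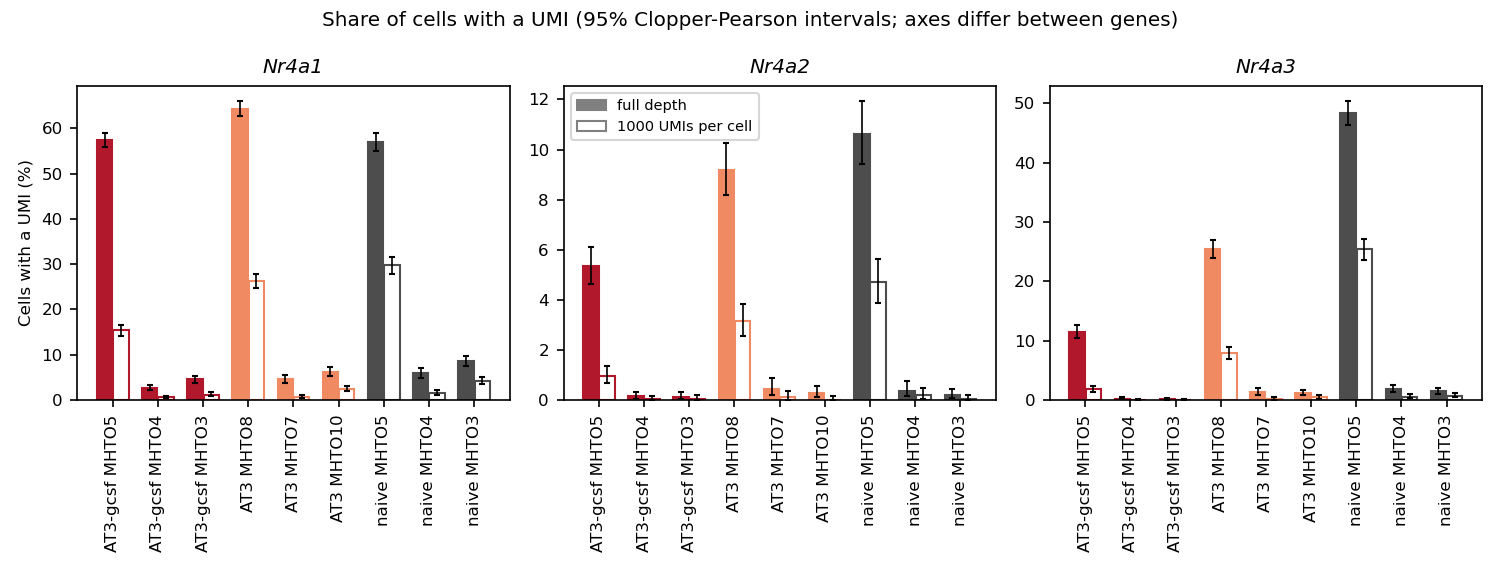
Percent of cells with a UMI of each member in the 9 populations, at full depth (filled bars) and with each cell thinned to 1000 UMIs (open bars), with 95% Clopper-Pearson intervals; the vertical axes differ between genes. The thinned Nr4a3 share in the Cxcl2-rich populations is 1.81% in AT3-gcsf, 7.91% in AT3 and 25.4% in naive.

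The members differed in how unevenly their UMIs were spread over cells at full depth. The share held by the richest cells also rises as fewer cells hold a UMI, so it is not apart from level and depth. Cells with Nr4a1 held on average 2.66, 3.27 and 2.84 UMIs of it in AT3-gcsf MHTO5, AT3 MHTO8 and naive MHTO5, and the richest single cells 57, 146 and 150. The richest 1% of cells held 9.01%, 16.2% and 19.6% of the Nr4a1 UMIs of these populations. Many of the richest cells were of the mixed cluster, which held 12 of the 41 cells with at least 10 Nr4a1 UMIs in AT3-gcsf MHTO5, 25 of 66 in AT3 MHTO8 and 19 of 32 in naive MHTO5. Nr4a2 was carried by the fewest cells, and the same 1% share was 44.6%, 36.6% and 34.4%. For Nr4a3 it was 19.5% in AT3-gcsf MHTO5, 14.2% in AT3 MHTO8 and 10.3% in naive MHTO5, the reverse of the order seen for Nr4a1. Its UMIs per cell with a UMI were 1.21 in AT3-gcsf, 1.68 in AT3 and 2.40 in naive, whereas those of Nr4a1 showed no such order.

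**Figure D3:**
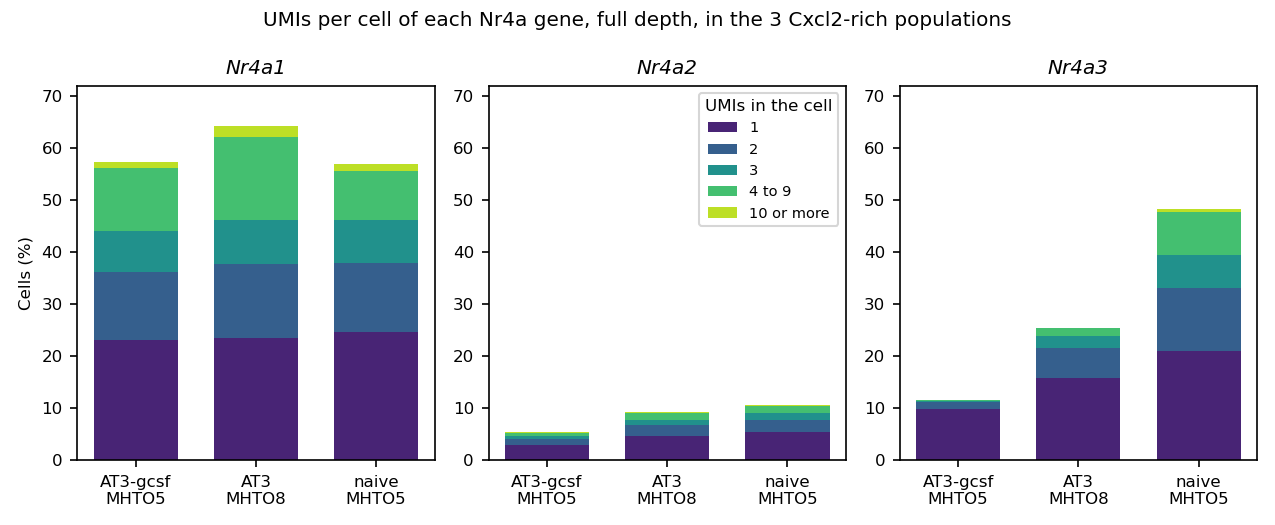
Percent of cells of the Cxcl2-rich populations that held 1, 2, 3, 4 to 9 or at least 10 UMIs of each member, stacked. The Nr4a3 bars stand at 11.5% in AT3-gcsf MHTO5, 25.4% in AT3 MHTO8 and 48.4% in naive MHTO5, and the naive bar holds the larger classes.

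Counted over all cells at full depth, at least 1 member had a UMI in 63.0% of AT3-gcsf MHTO5 cells, 72.9% of AT3 MHTO8 cells and 76.7% of naive MHTO5 cells. At full depth, all 3 members were found together in 0.753%, 2.92% and 4.01% of these cells and in 0 cells of the other 6 populations. Shares of one gene given another were instead taken at 1000 UMIs per cell and without the mixed cluster, since deep cells show more of every gene. Among cells with and without an Nr4a1 UMI, Nr4a3 was found in 2.89% and 1.64% in AT3-gcsf MHTO5, 10.8% and 6.99% in AT3 MHTO8, and 28.6% and 25.3% in naive MHTO5. With the mixed cluster kept, the intervals of these pairs of shares met except in AT3 MHTO8, where they were 8.97 to 13.4 and 5.78 to 7.90. Nr4a2 was found in 1.08% and 0.899% of cells with and without Nr4a1 in AT3-gcsf MHTO5, 4.39% and 2.60% in AT3 MHTO8, and 4.26% and 4.58% in naive MHTO5. Nr4a3 was thus nominally more frequent beside Nr4a1 in all 3 populations, whereas Nr4a2 had no such common direction. Among cells with and without Nr4a3, Nr4a2 was found in 0% and 0.944% in AT3-gcsf MHTO5, where only 67 cells had Nr4a3, in 3.797% and 3.01% in AT3 MHTO8, and in 5.74% and 4.03% in naive MHTO5. Among cells with and without a Cxcl2 UMI, Nr4a1 was found in 15.6% and 11.4% in AT3-gcsf MHTO5, 26.8% and 22.0% in AT3 MHTO8, and 31.0% and 24.4% in naive MHTO5. Nr4a3 was likewise found in 1.97% and 0.862%, 8.41% and 5.30%, and 26.5% and 24.8% of cells of the same populations in that order. Nr4a2 was found in 0.842% and 1.51% in AT3-gcsf MHTO5, 3.31% and 1.52% in AT3 MHTO8, and 4.54% and 4.07% in naive MHTO5, so AT3-gcsf went the other way. Cells are not replicates, and these shares carry no test.

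Epithelial and endothelial markers were highest in the same populations. Of 5 epithelial markers, 2 reached 20 CPM in AT3-gcsf MHTO5, 4 in AT3 MHTO8 and 5 in naive MHTO5, with none at 0. Their sums were 2263, 7168 and 10760 CPM, against 21.4 to 764.3 CPM in the other 6 populations. Those of 4 endothelial markers were 105.8, 263.3 and 349.7 CPM, against 0.965 to 5.59, also with none at 0. Of the 8 dendritic markers, which include the broadly detected Cst3, 2, 4 and 5 reached 20 CPM. Their sums were 712.4, 1299 and 4276 CPM, against 535.9 to 2200, and Flt3 and Cd209a were at 0 in AT3-gcsf MHTO5. Monocyte or macrophage markers, of a lineage in which Nr4a1 is known to act, had 2, 1 and 5 of 11 at 20 CPM and none at 0. Their sums were 88.8, 127.1 and 385.1 CPM, against 51.4 to 174.3 in the other 6, so naive MHTO5 had the highest. T or NK cell markers summed to 1.89, 27.9 and 127.8 CPM, with 0, 0 and 2 of 7 at 20 CPM, against 0.597 to 91.3 in the other 6. Eosinophil markers summed to 0.875, 5.83 and 21.6 CPM with 0 of 5 at 20 CPM. The most abundant of them was Ear1 in AT3 MHTO8 (3.56 CPM) and in naive MHTO5 (19.8 CPM). The eosinophil peroxidase gene Epx was at 0 in every population, the other 6 included. Eosinophil sums were 0.755 to 4.32 CPM in the other 6 populations. Erythroid markers summed to 0.711, 642.3 and 229.2 CPM, against 0.138 to 2780 in the other 6, and platelet markers to 2.46, 8.18 and 133.5, against 0.552 to 30.2. B cell markers summed to 2.76, 20.3 and 28.5, against 0.392 to 114.8, and basophil or mast cell markers to 6.15, 11.4 and 14.2, against 0.142 to 32.1. The highest erythroid, B cell and basophil or mast cell sums were thus in naive MHTO4 and not in a Cxcl2-rich population. The mast cell genes Fcer1a and Ms4a2 were at 0 in AT3 MHTO8 and naive MHTO5.

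The mixed cluster of 383 cells was led by Scgb1a1 and Sftpc, genes of lung epithelium, Cbr2 and Cd74, had a median of 9434 UMIs per cell and was left unnamed. It supplied 40 cells of AT3-gcsf MHTO5, 101 of AT3 MHTO8 and 140 of naive MHTO5. In those cells Nr4a1 stood at 314.5, 617.6 and 486.6 CPM and Nr4a2 at 49.4, 83.1 and 85.2 CPM, above the levels of the whole populations. Nr4a3 stood at 9.18, 51.7 and 145.1 CPM, below them. The cluster held 4.83%, 17.3% and 23.3% of the Nr4a1 UMIs of the 3 populations, 10.8%, 22.3% and 26.3% of the Nr4a2 UMIs, and 1.55%, 7.14% and 9.68% of the Nr4a3 UMIs. Without it, a step added after the data had been seen, Nr4a1 was at 151.1 CPM in AT3-gcsf MHTO5, 282.9 in AT3 MHTO8 and 427.5 in naive MHTO5. Nr4a2 was then at 9.97, 27.8 and 64.0 CPM, and Nr4a3 at 14.3, 64.5 and 361.7 CPM. The order of the 3 populations was the same for each member with the mixed cluster left out, and Nr4a3 in naive MHTO5 was higher. The part of other cells that remain in these populations was not tested.

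Among the 8 other clusters, the members were high in 3, each made almost wholly of 1 Cxcl2-rich population. The cluster with 97.2% of its 3636 cells from AT3-gcsf MHTO5 had 152.2 CPM of Nr4a1, 10.2 of Nr4a2 and 14.9 of Nr4a3. That with 94.4% of 2997 cells from AT3 MHTO8 had 289.9, 27.7 and 66.0 CPM of the members in the same order. That with 99.0% of 2192 cells from naive MHTO5 had 432.5, 66.3 and 369.9 CPM. In the remaining 5 clusters Nr4a1 ran from 3.56 to 32.5 CPM, Nr4a2 from 0.0970 to 0.772 and Nr4a3 from 0.259 to 4.80. A cluster mostly of 1 library may be that library and not a cell state.

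Between conditions, the question was how the members of the Cxcl2-rich populations differed with the tumour. All 3 were lowest in AT3-gcsf and highest in naive in CPM. With TMM, a scaling by a trimmed mean of gene ratios, the log2 ratio of Nr4a1 in AT3 over naive was 0.13. The median of all genes in that comparison was 0.14 with TMM, so Nr4a1 did not stand above the bulk of genes. The differences were smallest for Nr4a1 and widest for Nr4a3. Ratios below are log2 ratios of CPM with 5 CPM added, and folds are the plain CPM ratios. The populations compared are those richest in Cxcl2, a choice that no label makes.

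In AT3-gcsf MHTO5 against naive MHTO5, Nr4a1 was 2.84-fold lower (interval 2.72 to 2.96, log2 ratio -1.48), Nr4a2 6.28-fold lower (5.52 to 7.14, log2 -2.21) and Nr4a3 22.4-fold lower (20.4 to 24.6, log2 -4.07). All 3 members were at least 2-fold lower on the log2 scale, where 31.6% of all 4466 genes compared were. Nr4a3 was the gene ranked 15 from the lowest ratio. Cxcl2 was 1.24-fold lower (log2 -0.31). The CPM scale itself was shifted, since the median of all genes was -0.63, with 184 genes (4.12%) higher and 1410 lower. With TMM the median was 0.39, with 978 genes (21.9%) higher and 334 (7.48%) lower. The members then stood at -0.35, -1.25 and -3.04, so 2 of 3 were past 2-fold, and Cxcl2 stood at 0.83.

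In AT3 MHTO8 against naive MHTO5, Nr4a3 was 4.99-fold lower (4.67 to 5.33, log2 -2.23) and ranked 29 from the lowest of 4425 genes. Nr4a2 was 2.10-fold lower (1.88 to 2.35, log2 -0.97). Nr4a1 was 1.41-fold lower (1.35 to 1.47, log2 -0.49), a direction that turned with TMM (log2 0.13) and with DESeq2 size factors. One member, Nr4a3, was past 2-fold lower, where 11.2% of all genes were (495 genes, against 104 higher, 2.35%). With TMM 99 genes were lower (2.24%) and 275 higher (6.21%), the median of all genes moved to 0.14, against -0.41 in CPM, and Nr4a2 and Nr4a3 stood at -0.39 and -1.62. Cxcl2 was 1.05-fold lower in CPM, with TMM at 0.55.

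In AT3-gcsf MHTO5 against AT3 MHTO8, Nr4a1 was 2.01-fold lower (1.94 to 2.09, log2 -0.99), Nr4a2 2.99-fold lower (2.64 to 3.39, log2 -1.24) and Nr4a3 4.48-fold lower (4.05 to 4.97, log2 -1.84). Nr4a2 and Nr4a3 were past 2-fold lower, as were 6.30% of all 3666 genes (231, against 44 higher, 1.20%). With TMM the members stood at -0.48, -0.86 and -1.43, and 1.99% of genes were lower and 4.31% higher. The median of all genes was -0.17 in CPM and 0.31 with TMM. These comparisons share populations, so their values are given side by side and not as repeats of each other.

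Over whole libraries, sums of all 3 populations, the log2 ratios of the members in CPM, with 5 CPM added, were smaller in size in each comparison. The plain folds of Nr4a1, Nr4a2 and Nr4a3 hardly differed in AT3-gcsf against AT3. They were 1.96, 2.94 and 4.48 lower in libraries and 2.01, 2.99 and 4.48 lower in the Cxcl2-rich populations. The smaller size did not hold with TMM, where all 3 log2 ratios were larger in size in AT3-gcsf against AT3, as was that of Nr4a1 in the other comparisons. Nr4a1 stood at 66.1 CPM in AT3-gcsf, 129.6 in AT3 and 145.9 in naive. Nr4a2 stood at 4.51, 13.3 and 20.9 CPM and Nr4a3 at 5.88, 26.3 and 96.9 CPM in the same order. AT3-gcsf against naive gave log2 ratios of -1.09, -1.44 and -3.23 for Nr4a1, Nr4a2 and Nr4a3, so 3 members were past 2-fold lower, against 21.3% of all genes (4.10% higher), with TMM values of -0.44, -0.99 and -2.70 on 6.73% lower and 10.7% higher. AT3 against naive gave -0.16 for Nr4a1 (0.32 with TMM and also above 0 in 3 other alternatives), -0.50 and -1.70, with 1 member past 2-fold lower against 6.47% of all genes (1.72% higher), and with TMM 1.61% lower and 3.85% higher. AT3-gcsf against AT3 gave -0.92, -0.94 and -1.53, with 1 member against 3.41% (1.88% higher, and with TMM 2.32% lower and 2.51% higher), and Nr4a2 was under 20 CPM in both.

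The members did not keep their proportions between the populations. A UMI counts 1 captured molecule whatever its length, but genes may differ in capture, so UMI ratios between members were compared across populations only and not read as relative abundance. Nr4a3 had 0.0912 UMIs for each Nr4a1 UMI in AT3-gcsf MHTO5 (0.0832 to 0.0998), 0.203 in AT3 MHTO8 (0.191 to 0.215) and 0.718 in naive MHTO5 (0.684 to 0.754). Without the mixed cluster the ratios were 0.0943, 0.228 and 0.846. Nr4a2 to Nr4a1 was 0.0704 in AT3-gcsf (0.0634 to 0.0779), 0.104 in AT3 (0.0963 to 0.113) and 0.156 in naive (0.143 to 0.170). The Nr4a3 to Nr4a2 ratio was 1.30 (1.14 to 1.48), 1.94 (1.77 to 2.14) and 4.62 (4.23 to 5.05). No scaling enters such a ratio, and none of these intervals overlapped between populations. Outside the Cxcl2-rich populations the ratios with Nr4a2 were not read, since Nr4a2 had at most 9 UMIs there. Nr4a3 to Nr4a1 was 0.292 in naive MHTO4 (0.202 to 0.414) and 0.149 in naive MHTO3 (0.106 to 0.204). It was 0.2755 in AT3 MHTO7 (0.1729 to 0.4255) and 0.174 in AT3 MHTO10 (0.115 to 0.256). The naive intervals thus overlapped those of AT3, unlike in the Cxcl2-rich populations. In AT3-gcsf MHTO4 and MHTO3 it was 0.0571 (0.0242 to 0.116) and 0.0345 (0.0110 to 0.0823), on 8 and 5 Nr4a3 UMIs.

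**Figure D4:**
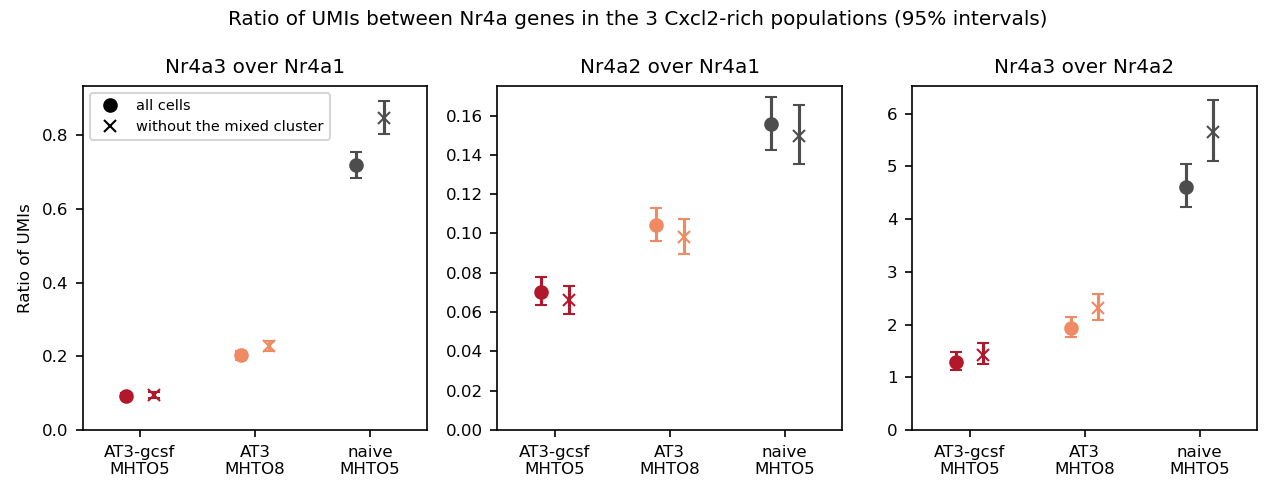
Ratios of UMIs between members in the 3 Cxcl2-rich populations (linear axis), over all cells (dots) and without the mixed cluster (crosses), both with 95% intervals. Nr4a3 to Nr4a1 is 0.0912 in AT3-gcsf MHTO5, 0.203 in AT3 MHTO8 and 0.718 in naive MHTO5.

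Likeness of levels was measured by Pearson r of log2(CPM + 5) over the 9 populations. Those of a library share its lane but differ in depth. The genes whose levels ran most alike were sought among 5286 genes that reached 20 CPM in a population. For Nr4a1 they were Ndel1 (r = 0.9964), which encodes a dynein regulator, Ets2 (0.9951), a transcription factor, Coq10b (0.9946), a coenzyme Q binding protein, Fosb (0.9938), an AP-1 subunit, and Dusp5 (0.9935), an ERK phosphatase. Ets2 stood at 298.4 CPM in AT3-gcsf MHTO5, 585.9 in AT3 MHTO8 and 1113 in naive MHTO5. From 1.25% to 19.2% of the UMIs of these 5 genes came from the mixed cluster, beside 13.99% of those of Nr4a1. For Nr4a3 the closest gene was Tinf2 (0.9981), part of the telomere shelterin complex, at 10.1, 28.8 and 67.5 CPM in the same 3 populations with 4.08% of its UMIs in the mixed cluster. The others were Gm20186 (0.9964), and Avpi1 (0.9952), Pxdc1 (0.9946) and Lpl (0.9944), which had from 74.9% (Avpi1) to 96.3% (Lpl) of their UMIs in the mixed cluster. For Nr4a2 they were Stmn2 (0.9990), Emp1 (0.9989), Pakap (0.9987), the cytokine gene Il1a (0.9986) and Fermt2 (0.9984). All but Il1a (8.39%) had 95.8% to 97.9% of their UMIs in the mixed cluster, against 20.8% of those of Nr4a2, so their likeness over populations is not one over cells. Outside the Cxcl2-rich populations Nr4a2 stood at 0.138 to 0.835 CPM and Nr4a3 at 0.230 to 6.26 CPM. With 5 CPM added, those values of Nr4a2 are almost the same. The r values of Nr4a2 thus rest mainly on the 3 Cxcl2-rich populations, as do those of Nr4a3 to a lesser degree. Between the members r was 0.979 for Nr4a2 and Nr4a3, 0.937 for Nr4a1 and Nr4a2 and 0.922 for Nr4a1 and Nr4a3. Many genes ran more alike than that. Among the genes most like Nr4a1, Nr4a2 ranked 238 and Nr4a3 295. Among those most like Nr4a2, Nr4a3 ranked 117 and Nr4a1 317, and among those most like Nr4a3, Nr4a2 ranked 84 and Nr4a1 418.

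Lists of genes around the family were then read in the same comparisons, within libraries first. Of the immediate-early genes, the class to which the family belongs, 16 of 22 compared in AT3-gcsf, 18 of 23 in AT3 and 15 of 24 in naive were at least 2-fold higher in the Cxcl2-rich population than in both others, beside 5.94%, 9.05% and 13.2% of all genes. The median of the lesser of the paired log2 ratios was 1.77, 2.16 and 2.11, against -0.24, -0.27 and -0.29 over all genes. Egr1, a zinc-finger transcription factor, stood at 153.2 CPM in AT3-gcsf MHTO5 against 4.49 and 2.85 in MHTO4 and MHTO3. It stood at 361.5 CPM in AT3 MHTO8 against 2.41 and 6.57 in MHTO7 and MHTO10, and at 335.6 CPM in naive MHTO5 against 3.67 and 6.82 in MHTO4 and MHTO3. Fosb and Fosl1, AP-1 subunits, stood at 152.2 and 118.8 CPM in AT3-gcsf MHTO5 and at no more than 3.14 CPM in MHTO4 or MHTO3. The Cxcl2-rich population was the highest of its library for Egr1, Fosb and Fosl1, but not for the whole list. Ier5, Klf6 and Zfp36 were higher in AT3-gcsf MHTO3, AT3 MHTO10 and naive MHTO3 than in the Cxcl2-rich population of the same library. Jun stood at 118.8 CPM in AT3-gcsf MHTO5 against 141.0 in MHTO4.

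NF-kB feedback genes behaved alike, with 8 of 15, 11 of 16 and 15 of 17 past 2-fold in AT3-gcsf, AT3 and naive. Tnfaip3 (A20), which ends NF-kB signalling, stood at 50.0 CPM in AT3-gcsf MHTO5, 212.8 in AT3 MHTO8 and 323.0 in naive MHTO5, and at no more than 16.2 CPM in the other 6 populations. Of the MAP kinase feedback genes 3 of 6, 4 of 8 and 4 of 8 were past 2-fold, led by the phosphatase genes Dusp5 in AT3-gcsf and Dusp2 in AT3 and naive. Of the heat shock genes 2 of 6, 4 of 8 and 5 of 10 were. In the cAMP, PKA and CREB list, a pathway known to act through cAMP response elements, 3 of 11, 3 of 13 and 3 of 16 were, and in each library they were Pde4b, a cAMP phosphodiesterase, Sik1, a kinase that restrains CREB co-activators, and Crem, a CREB-family factor. Against 5.94%, 9.05% and 13.2% of all genes, the naive share of this list was not far from the background. Crem stood at 26.5 CPM in AT3-gcsf MHTO5, 49.4 in AT3 MHTO8 and 118.9 in naive MHTO5, against 4.68 to 8.35 in the other 6. None of the NR4A partners and co-regulators (0 of 7, 0 of 8 and 0 of 10) and none of the other nuclear receptors (0 of 6, 0 of 6 and 0 of 8) was past 2-fold higher. Of the survival and death genes 1 of 12 was in AT3-gcsf, the death gene Bcl2l11, 4 of 15 in AT3 and 6 of 18 in naive. Bcl2a1b, a survival gene, stood at 90.8 CPM in AT3 MHTO8 and 576.4 in naive MHTO5, but its near-identical copies Bcl2a1a and Bcl2a1d make its counts uncertain.

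Between AT3-gcsf MHTO5 and naive MHTO5, most lists were lower in CPM, and by less or not at all with TMM. Of 24 immediate-early genes 15 were at least 2-fold lower and 1 higher, with a median log2 ratio of -1.30, against 2 lower, 2 higher and -0.23 with TMM. Gadd45b, a stress sensor, stood at 188.0 CPM in AT3-gcsf MHTO5 and 1306 in naive MHTO5 (log2 -2.76, TMM -1.63). Zfp36, which encodes an mRNA decay factor, stood at 137.2 CPM in AT3-gcsf MHTO5 and 639.1 in naive MHTO5 (log2 -2.18, TMM -1.05). Both were past 2-fold lower under either scaling, unlike most of the list. Of 17 NF-kB feedback genes 15 were lower and 0 higher (median -1.48), against 5 lower and 0 higher (-0.40) with TMM. Icam1, an adhesion receptor gene, led them at 17.4 CPM in AT3-gcsf MHTO5 and 186.0 in naive MHTO5 (log2 -3.09, TMM -2.06).

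Of 10 heat shock genes 9 were lower in AT3-gcsf MHTO5 than in naive MHTO5 (median -1.80), against 3 (-0.75) with TMM. Of 7 MAP kinase feedback genes 6 were lower (median -1.25), against 1 lower and 1 higher (-0.27) with TMM. Dusp2 stood at 31.5 CPM in AT3-gcsf MHTO5 and 362.1 in naive MHTO5 (log2 -3.33, TMM -2.25), the widest difference of that list. Of 14 genes of the cAMP list 8 were lower (median -1.22), against 0 lower and 2 higher (-0.17) with TMM. Of 9 partners and co-regulators 2 were lower (median -0.69), against 0 lower and 1 higher (0.26), and of 5 other nuclear receptors 2 were lower (median -0.059), against 0 lower and 3 higher (1.01). Survival and death genes had 7 of 17 lower and 1 higher (median -0.70), against 3 lower and 3 higher (0.30) with TMM. In this comparison 31.6% of all genes were lower in CPM, with a median of -0.63, so the counts of the partners, other nuclear receptors and survival genes lay near the background. Nr3c1, the glucocorticoid receptor gene, stood at 50.8 CPM in AT3-gcsf MHTO5 and 139.0 in naive MHTO5 (log2 -1.37, TMM -0.29). Set beside these lists, Nr4a3 (log2 -4.07, TMM -3.04) was lower than every listed gene except the near-identical copies Bcl2a1b (log2 -4.92, TMM -3.88), Bcl2a1a (log2 -4.50, TMM -3.73) and Bcl2a1d (log2 -4.44, TMM -3.62). Bcl2a1b stood at 14.2 CPM in AT3-gcsf MHTO5 and 576.4 in naive MHTO5. The other lists stand in the same 2 populations as the other-type markers above, whose part in them was not tested.

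**Figure D5:**
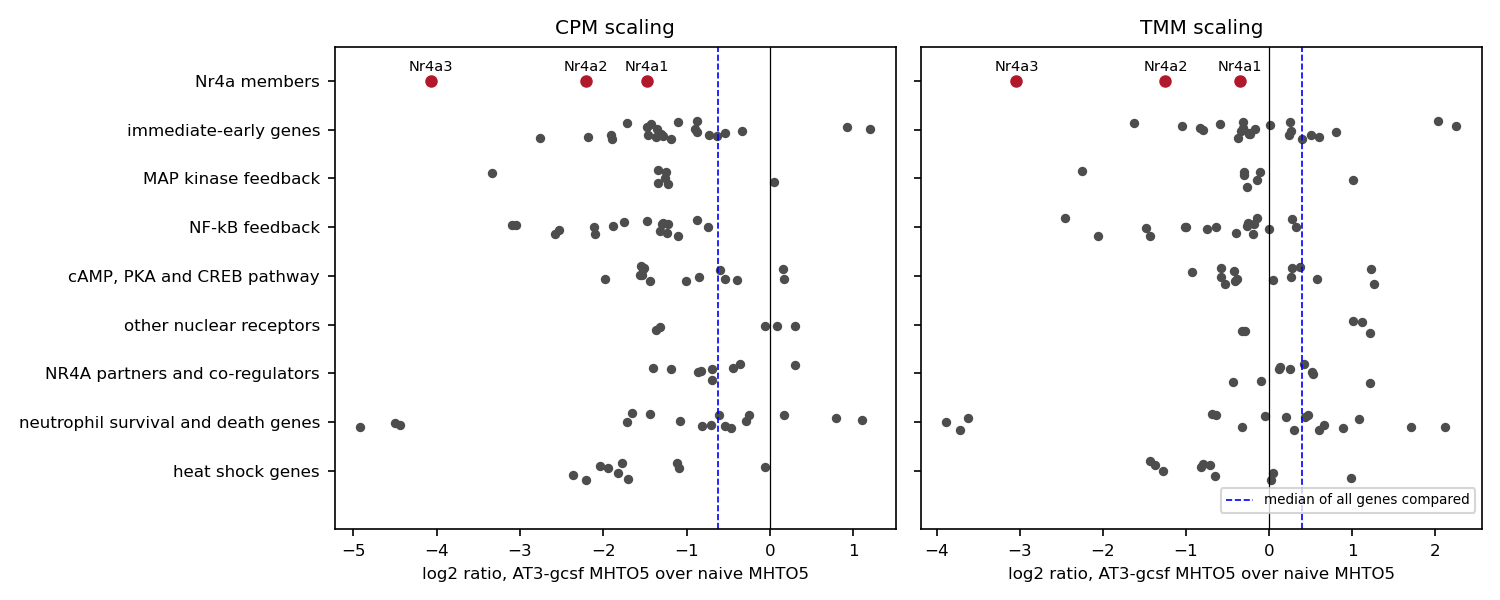
Log2 ratio of AT3-gcsf MHTO5 over naive MHTO5 for each gene of the lists and the 3 members, by CPM (5 added) and by TMM scaling; the dashed line is the median of all genes compared, -0.63 in CPM and 0.39 with TMM. Nr4a3 lies at -4.07 and -3.04 and Nr4a1 at -1.48 and -0.35.

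In AT3 MHTO8 against naive MHTO5 fewer list genes were past 2-fold in CPM, as were fewer of all genes (11.2% lower, 2.35% higher). Of 24 immediate-early genes 2 were higher, Fosl1 (log2 1.53) and the repressor gene Nfil3 (1.03), and 1 lower, the clock gene Per1 (-1.01). Of 17 NF-kB feedback genes 6 were lower, of 10 heat shock genes 4, of 14 cAMP list genes 3 (Prkar2b, Crem and Creb1), of 17 survival and death genes 3, of 7 MAP kinase feedback genes 1 (Dusp2), of 4 other nuclear receptors 1 and of 8 partners 0. With TMM 3 survival and death genes, 1 NF-kB feedback gene and Dusp2 were lower, 2 immediate-early genes, 1 cAMP list gene and 1 survival gene were higher, and the other lists had none past 2-fold. In AT3-gcsf MHTO5 against AT3 MHTO8, 7 of 23 immediate-early genes, 4 of 15 NF-kB feedback genes, 3 of 8 heat shock genes, 1 of 15 survival and death genes and 1 of 7 MAP kinase feedback genes were lower, beside 6.30% of all genes. None of the 12 cAMP list genes, 8 partners and 5 other nuclear receptors was. With TMM the counts were 2, 2, 0, 1 and 1 for the 5 lists in the same order.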

How the data were processed

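Neutrophil libraries of 3 conditions were made with 10x version 3 chemistry. The deposited matrices hold raw UMI counts per gene and barcode, called cells only, which the authors made on mm10 using bcl2fastq 2.20.0.422 and Cell Ranger 4.0.0, tools that the submitters' processing notes name. The deposited hashtag files hold raw counts per tag and barcode, by a program not given in the sources used here. Hashtag files were matched to libraries by shared barcodes (94.1% to 97.4% of called barcodes, at most 0.672% in another file). A cell was assigned to a population when its top tag held at least 80% of its tag counts and 20 counts, and kept with at least 200 genes and under 10% mitochondrial counts. UMIs were summed per population and scaled to a common total (CPM). Genes that reached 20 CPM in the higher sum were compared by log2 ratio with 5 CPM added, and called at 1 in size. Intervals are exact Poisson, Clopper-Pearson and conditional binomial, at 95%. No p-value was computed, since each condition had 1 library. Cells were clustered with Leiden (scanpy 1.11.5, leidenalg 0.10.2, 2000 variable genes, 30 components, 15 neighbours, resolution 0.5). Doublets were those removed by the tag rule, with Scrublet as an alternative. Other alternatives were TMM (edgeR 4.0.16), DESeq2 1.42.0 size factors, HTODemux (Seurat 5.3.0), and those the closing section gives. Other tools were Python 3.11.15, numpy 2.4.6, pandas 2.3.3, scipy 1.17.1, matplotlib 3.10.9 and R 4.3.3. The ratio calls and the intervals of count ratios were tested on simulated Poisson counts, which hold no spread between cells beyond counting error. The other steps were not simulated. The members and lists were chosen with earlier results of these data known. Named genes are the members, the 5 genes most like each, Cxcl2, and up to 4 genes of a list with the largest ratios in size in a comparison. Some immediate-early genes that were lower in a Cxcl2-rich population than elsewhere in its library are also named.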

Additional observations from a re-analysis of the deposited data

How the results depend on the processing

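The log2 ratios were recomputed under 13 alternatives for libraries and 11 for the Cxcl2-rich populations. All alternatives kept the direction of Nr4a2 and Nr4a3 in the 6 comparisons and of Nr4a1 in AT3-gcsf over naive and over AT3. Nr4a1 in AT3 over naive kept its direction in 9 of 11 alternatives for the Cxcl2-rich populations and 9 of 13 for libraries. Of 375 recomputed values, 205 moved by less than their counting interval or, for counts, by less than 1.5 times, and 170 moved by more. The values that moved, as log2 ratios, were as follows. TMM scaling gave Nr4a1 0.13, Nr4a2 -0.39 and Nr4a3 -1.62 for AT3 MHTO8 over naive MHTO5 and Nr4a1 -0.35, Nr4a2 -1.25 and Nr4a3 -3.04 for AT3-gcsf MHTO5 over naive MHTO5. It gave Nr4a1 -0.48, Nr4a2 -0.86 and Nr4a3 -1.43 for AT3-gcsf MHTO5 over AT3 MHTO8 and Nr4a1 0.32, Nr4a2 -0.11 and Nr4a3 -1.24 for AT3 over naive (libraries). It gave Nr4a1 -0.44, Nr4a2 -0.99 and Nr4a3 -2.70 for AT3-gcsf over naive (libraries) and Nr4a1 -0.76 for AT3-gcsf over AT3 (libraries). DESeq2 size factors gave Nr4a1 0.059, Nr4a2 -0.45 and Nr4a3 -1.68 for AT3 MHTO8 over naive MHTO5 and Nr4a1 -0.65, Nr4a2 -1.48 and Nr4a3 -3.29 for AT3-gcsf MHTO5 over naive MHTO5. It gave Nr4a1 -0.70, Nr4a2 -1.03 and Nr4a3 -1.61 for AT3-gcsf MHTO5 over AT3 MHTO8 and Nr4a1 0.35, Nr4a2 -0.088 and Nr4a3 -1.21 for AT3 over naive (libraries). It gave Nr4a1 -0.55, Nr4a2 -1.04 and Nr4a3 -2.75 for AT3-gcsf over naive (libraries). Leaving the 20 most abundant genes out of the totals gave Nr4a1 -0.15, Nr4a2 -0.68 and Nr4a3 -1.93 for AT3 MHTO8 over naive MHTO5 and Nr4a1 -1.01, Nr4a2 -1.93 and Nr4a3 -3.77 for AT3-gcsf MHTO5 over naive MHTO5. It gave Nr4a1 -0.86 for AT3-gcsf MHTO5 over AT3 MHTO8 and Nr4a1 0.066, Nr4a2 -0.35 and Nr4a3 -1.55 for AT3 over naive (libraries). It gave Nr4a1 -0.87 and Nr4a3 -3.30 for AT3-gcsf over naive (libraries) and Nr4a2 -1.14 and Nr4a3 -1.75 for AT3-gcsf over AT3 (libraries). Adding 1 CPM gave Nr4a2 -2.54 and Nr4a3 -4.39 for AT3-gcsf MHTO5 over naive MHTO5 and Nr4a2 -1.50 and Nr4a3 -2.09 for AT3-gcsf MHTO5 over AT3 MHTO8. It gave Nr4a2 -0.61 and Nr4a3 -1.84 for AT3 over naive (libraries) and Nr4a2 -1.99 and Nr4a3 -3.83 for AT3-gcsf over naive (libraries). It gave Nr4a2 -1.37 and Nr4a3 -1.99 for AT3-gcsf over AT3 (libraries). HTODemux singlets gave Nr4a1 -0.43 for AT3 MHTO8 over naive MHTO5. Leaving out cells with 2 or more UMIs of 1 other-type list gave Nr4a1 -0.36 and Nr4a2 -1.24 for AT3 MHTO8 over naive MHTO5 and Nr4a1 -1.41, Nr4a2 -2.06 and Nr4a3 -4.66 for AT3-gcsf MHTO5 over naive MHTO5. It gave Nr4a1 -1.05, Nr4a2 -0.81 and Nr4a3 -2.39 for AT3-gcsf MHTO5 over AT3 MHTO8 and Nr4a1 0.11 and Nr4a3 -1.54 for AT3 over naive (libraries). It gave Nr4a1 -0.71, Nr4a2 -1.02 and Nr4a3 -3.40 for AT3-gcsf over naive (libraries) and Nr4a1 -0.81, Nr4a2 -0.47 and Nr4a3 -1.86 for AT3-gcsf over AT3 (libraries). Leaving out Scrublet doublets gave Nr4a1 -1.05 for AT3-gcsf MHTO5 over AT3 MHTO8. Thinning to 1000 UMIs gave Nr4a1 -0.20 and Nr4a3 -1.96 for AT3 MHTO8 over naive MHTO5 and Nr4a1 -1.15 for AT3-gcsf MHTO5 over naive MHTO5. It gave Nr4a2 -1.37 and Nr4a3 -2.03 for AT3-gcsf MHTO5 over AT3 MHTO8 and Nr4a1 -0.0039 and Nr4a3 -1.55 for AT3 over naive (libraries). It gave Nr4a2 -1.62 and Nr4a3 -3.42 for AT3-gcsf over naive (libraries) and Nr4a1 -1.05, Nr4a2 -1.13 and Nr4a3 -1.87 for AT3-gcsf over AT3 (libraries). Equal weight for the 3 populations gave Nr4a1 -0.54, Nr4a2 -0.80 and Nr4a3 -2.04 for AT3 over naive (libraries) and Nr4a1 -1.49, Nr4a2 -1.70 and Nr4a3 -3.52 for AT3-gcsf over naive (libraries). Leaving out the Cxcl2-rich populations gave Nr4a1 -0.94, Nr4a2 -0.054 and Nr4a3 -0.42 for AT3 over naive (libraries) and Nr4a1 -1.36, Nr4a2 -0.15 and Nr4a3 -0.81 for AT3-gcsf over naive (libraries). It gave Nr4a1 -0.42, Nr4a2 -0.098 and Nr4a3 -0.39 for AT3-gcsf over AT3 (libraries). Leaving out the mixed cluster gave Nr4a1 -0.59 and Nr4a3 -2.40 for AT3 MHTO8 over naive MHTO5 and Nr4a3 -4.25 for AT3-gcsf MHTO5 over naive MHTO5. It gave Nr4a1 -0.88 for AT3-gcsf MHTO5 over AT3 MHTO8 and Nr4a1 -0.94 and Nr4a2 -1.28 for AT3-gcsf over naive (libraries). It gave Nr4a1 -0.77 and Nr4a2 -0.80 for AT3-gcsf over AT3 (libraries). With Cst3 not counted, leaving out such cells gave Nr4a3 -2.36 for AT3 MHTO8 over naive MHTO5 and Nr4a3 -4.36 for AT3-gcsf MHTO5 over naive MHTO5. It gave Nr4a3 -2.00 for AT3-gcsf MHTO5 over AT3 MHTO8 and Nr4a1 -0.062 for AT3 over naive (libraries). It gave Nr4a1 -0.87 and Nr4a2 -1.15 for AT3-gcsf over naive (libraries) and Nr4a1 -0.81 and Nr4a2 -0.74 for AT3-gcsf over AT3 (libraries). The cause was not tested.

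Shares of cells with a UMI in AT3-gcsf MHTO5, AT3 MHTO8 and naive MHTO5 moved with the cells used. Thinned to 1000 UMIs they were 15.4%, 26.3% and 29.8% for Nr4a1, 0.971%, 3.14% and 4.69% for Nr4a2, and 1.81%, 7.91% and 25.4% for Nr4a3. Thinned and without the mixed cluster they were 15.1%, 26.1% and 30.1% for Nr4a1, 0.927%, 3.07% and 4.48% for Nr4a2, and 1.83%, 7.996% and 26.3% for Nr4a3. Without cells with other-type markers, at full depth, they were 44.7%, 58.5% and 47.7% for Nr4a1, 3.53%, 5.65% and 8.99% for Nr4a2, and 7.06%, 21.0% and 41.7% for Nr4a3. That filter left 2.5% to 21.7% of the cells of a population because Cst3 is widely detected, so 2 ways of leaving cells out were added after the data had been seen: not counting Cst3 (65.3% to 81.0% left) and removing the mixed cluster (94.2% to 99.8% left).

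Members past 2-fold in AT3-gcsf MHTO5 over both others numbered 3 with no minimum and 3 when the totals excluded the 20 top genes, against 1. TMM scaling left these numbers of list genes at least 2-fold lower in AT3 MHTO8 over naive MHTO5: 0 for immediate-early genes, 0 for cAMP, PKA and CREB pathway, 1 for NF-kB feedback, 0 for other nuclear receptors and 0 for heat shock genes. In AT3-gcsf MHTO5 over naive MHTO5 they were 2 for immediate-early genes, 0 for cAMP, PKA and CREB pathway, 0 for NR4A partners and co-regulators, 3 for neutrophil survival and death genes, 1 for MAP kinase feedback, 5 for NF-kB feedback, 0 for other nuclear receptors and 3 for heat shock genes, and in AT3-gcsf MHTO5 over AT3 MHTO8 2 for immediate-early genes, 2 for NF-kB feedback and 0 for heat shock genes. It also gave 3 survival and death genes higher in AT3-gcsf MHTO5 over both others. With no minimum, 2 other nuclear receptors were lower in AT3 MHTO8 over naive MHTO5, 4 partners and 8 other nuclear receptors in AT3-gcsf MHTO5 over naive MHTO5, and 3 survival genes and 1 other nuclear receptor in AT3-gcsf MHTO5 over AT3 MHTO8. Over both other populations of the library, 2 survival genes in AT3-gcsf, 1 other nuclear receptor in AT3 and 5 in naive were then higher. Scrublet called 0.433% of AT3-gcsf, 2.43% of AT3 and 0.515% of naive cells, so doublets were in effect removed only by the tags. No paired analysis was possible because the labels pair none of the populations across libraries. With 1 library per condition no library could be left out. Nr4a2 and Nr4a3 outside the Cxcl2-rich populations rest on 3 to 45 UMIs.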
